A study of Homo sapiens with 4 samples.

Results

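The regions described here are H3K4me3 peaks of HCT116 cells that share at least 1 base with an RNAPII peak and none with a TAF3 peak, in the peak lists that the authors filtered. There were 2057 such regions among 14298 filtered H3K4me3 peaks (14.4%). They were chosen from the readout itself, so their number and the absence of a filtered TAF3 peak are a description and not a finding. A 2nd, longer TAF3 list holds every peak that MACS called, including those the authors' filter removed. Against that full list the 2057 regions divided into 1730 with a TAF3 peak below the filter, called sub-filter here, and 327 with no TAF3 peak at all.

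HCT116 is an established human colorectal carcinoma line, here at passage 15 to 18, grown as a monolayer and fixed with formaldehyde, with no other treatment named in the labels. The groups are 1 TAF3 library, 1 H3K4me3 library and 1 RNAPII library, each set against the same input DNA library that had no antibody. Residues 290 to 389 of human TAF3 were the antigen for its antiserum. Nothing is replicated, so no test between conditions can be made, no p-value is given, and the intervals below cover only the counting of peaks. After duplicate removal the libraries held 17411155 tags (TAF3), 12560129 tags (H3K4me3), 16841238 tags (RNAPII) and 19185386 tags (input).

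H3K4me3 is the trimethylated form of lysine 4 on histone H3 and marks the nucleosomes beside active and poised promoters. TAF3 is a subunit of TFIID, the general transcription factor that recognises core promoters and delivers TBP, and its PHD finger binds H3K4me3. TFIID helps to assemble the preinitiation complex, through which RNA polymerase II (RNAPII) enters the gene. In chromatin from many cells, occupancy of fewer cells and lower occupancy in each cell cannot be told apart.

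By 1 shared base, most of these regions touched a TAF3 peak of the full list, so "lacking TAF3" refers to the authors' filter. Sub-filter TAF3 peaks were present at 1730 of the 2057 regions (84.1%, Wilson 95% interval 82.5 to 85.6%). The share depended on the overlap rule. Where a partner had to cover 50% of the H3K4me3 peak, 2436 peaks met the rule. Of them, 45.0% (43.0 to 46.9%) had a full-list TAF3 peak. That set differs, since it admits H3K4me3 peaks whose filtered TAF3 peak covers less than 50% of them. Where the H3K4me3 summit had to lie inside the partner, the share was 76.5% (74.6 to 78.3%) of 2024 peaks. That set likewise admits H3K4me3 peaks whose TAF3 peak, filtered or not, misses their summit. By 1 shared base, 79.0% of the 1730 had their TAF3 peak wholly inside the H3K4me3 peak. The same full TAF3 list touched 94.3% of all filtered H3K4me3 peaks and 70.2% of the H3K4me3 peaks without a filtered TAF3 peak. The share was much lower where a filtered RNAPII peak was missing too, at 191 of 680 H3K4me3 peaks with neither filtered partner (28.1%, 24.8 to 31.6%). The difference was 56.01 percentage points (Newcombe 95% interval 52.2 to 59.6).

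The gap between peaks with and without a filtered RNAPII peak remained in the lower 3 quintiles when H3K4me3 strength was held alike. Deciles and quintiles here are of all 14298 H3K4me3 peaks. In the lowest decile of H3K4me3 fold enrichment, 521 of 688 regions with RNAPII had a sub-filter TAF3 peak (75.7%), against 88 of 378 without RNAPII (23.3%), at median H3K4me3 enrichments of 26.9-fold and 28.0-fold. In the next decile the counts were 514 of 601 with RNAPII (85.5%) and 56 of 195 without (28.7%). Further up, in the 2nd quintile, TAF3 was present at 479 of 541 regions with RNAPII (88.5%) and at 38 of 91 without (41.8%). The difference there was 46.8 points (36.1 to 56.7). In the 3rd quintile it was present at 138 of 146 with RNAPII (94.5%) and at 7 of 14 without (50%), a difference of 44.5 points (20.8 to 67.9). The 4th quintile went the other way, with 57 of 59 (96.6%) against 2 of 2, a difference of -3.39 points whose interval (-11.5 to 62.4) includes 0. The 5th held no peak without RNAPII. RNAPII fold enrichment was not matched in these comparisons, since one side has no filtered RNAPII peak. Without RNAPII here means without a filtered RNAPII peak. The filter left out 36443 of 61456 RNAPII peaks, and those were not counted in this split.

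The sub-filter TAF3 peaks were small and missed the filter by their false discovery rate. To be kept by the authors, a peak needed more than 5-fold enrichment and less than a 5% false discovery rate. All 1730 had a false discovery rate of 5% or more, and only 11 were also at or under 5-fold. The rate was under 10% for 753 of them, 10% to under 20% for 639 and 20% or more for 338. Their median was 11.3-fold over input (quartiles 8.97 and 14.5) with 37 tags in 746 bp, against 36.9-fold with 193 tags in 1575 bp at the 11523 H3K4me3 peaks that had both filtered TAF3 and RNAPII. The choice of regions sets that TAF3 difference, so nothing is read from it.

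There was no break in TAF3 score at the filter. MACS scores a peak by -10 times the log10 of its p-value, so higher is stronger. Counting H3K4me3 peaks with RNAPII by the score of their best TAF3 peak in steps of 50, there were 419 from 50 to 100, 433 from 100 to 150, 394 from 150 to 200 and 357 from 200 to 250. Another 347 lay from 250 to 300, 335 from 300 to 350 and 334 from 350 to 400. The counts thus declined gently through the filter, which falls between 266.79 and 266.84. Just outside it, the region at chr9:114286965-114288577 had a TAF3 peak of 19.4-fold and 47 tags (score 266.79) with H3K4me3 of 138-fold and RNAPII of 114-fold. Just inside it, and so not among the 2057, the H3K4me3 peak at chr19:11877215-11879056 had TAF3 of 13.1-fold and 57 tags (score 266.84) with H3K4me3 of 103-fold and RNAPII of 35.6-fold. On the RNAPII side, the weakest RNAPII peak among the 2057 scored 240.82 at chr13:32604861-32606491, and the nearest H3K4me3 peak outside, at chr11:67417810-67418851, had an RNAPII peak of score 239.82.

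**Figure D1:**
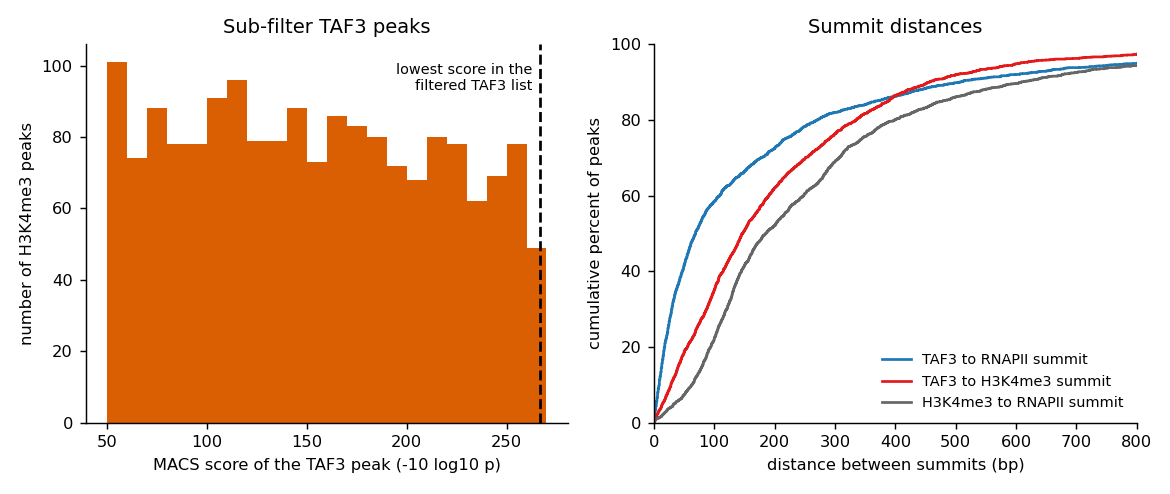
The left panel counts the 1730 regions by the MACS score of their sub-filter TAF3 peak in steps of 10, with the lowest score of the filtered TAF3 list (266.84) as a dashed line. The right panel gives the cumulative percent of these regions by distance between summits up to 800 bp, where the TAF3 to RNAPII curve climbs fastest and 41.8% of TAF3 summits lie within 50 bp of the RNAPII summit.

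Regions with a sub-filter TAF3 peak had more RNAPII and more H3K4me3 than regions with none. Median RNAPII enrichment was 43.9-fold (95% interval of the median 42.8 to 45.2) in the 1730 and 28.7-fold (26.8 to 30.9) in the 327. The RNAPII peaks held medians of 131 and 80 tags, in the same order, over 1030 and 918 bp. Median H3K4me3 enrichment was 53.3-fold (51.4 to 56.6) with a sub-filter TAF3 peak and 37.5-fold (35.4 to 41.8) with none, with 1482 bp (1465 to 1514) and 1267 bp (1199 to 1320) of peak width. The intervals of the medians do not overlap for these measures. The spread among regions was far wider, with quartiles of RNAPII enrichment at 30.7 and 62.6 in the 1730 and at 20.2 and 40.6 in the 327. The order turned for RNAPII enrichment, H3K4me3 enrichment and H3K4me3 width when a partner had to cover 50% of the H3K4me3 peak. RNAPII was then 49.2-fold with TAF3 and 60.1-fold without, H3K4me3 was 53.9-fold and 82.3-fold, and H3K4me3 width was 1470 bp and 1812 bp. That setting also admits H3K4me3 peaks whose TAF3 peak, filtered or not, covers less of them. With only the upper 50% of RNAPII peaks, the RNAPII intervals overlapped. They were 63.3-fold (61.7 to 65.4) with a sub-filter TAF3 peak and 60.5-fold (56.1 to 66.9) with none.

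Both sets were weaker and narrower than H3K4me3 peaks with filtered TAF3 and RNAPII. Across all 2057 regions the median RNAPII enrichment was 41.4-fold (quartiles 28.4 and 60.1), against 109.6-fold (80.4 and 145.6) at the 11523 peaks with both. RNAPII peaks were 1011 bp wide, against 1777 bp. H3K4me3 peaks were 1452 bp wide, against 2423 bp. The interquartile ranges of RNAPII enrichment and of H3K4me3 width did not overlap between these classes. The 327 regions with no TAF3 peak were close in H3K4me3 enrichment and width to the 680 peaks with neither filtered partner. Medians were 37.5-fold (35.4 to 41.8) and 35.8-fold, and 1267 bp and 1174 bp. H3K4me3 tags were 108 (98 to 114) and 88 (82 to 95), intervals that do not overlap. Of the 680, 191 had a sub-filter TAF3 peak.

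**Figure D2:**
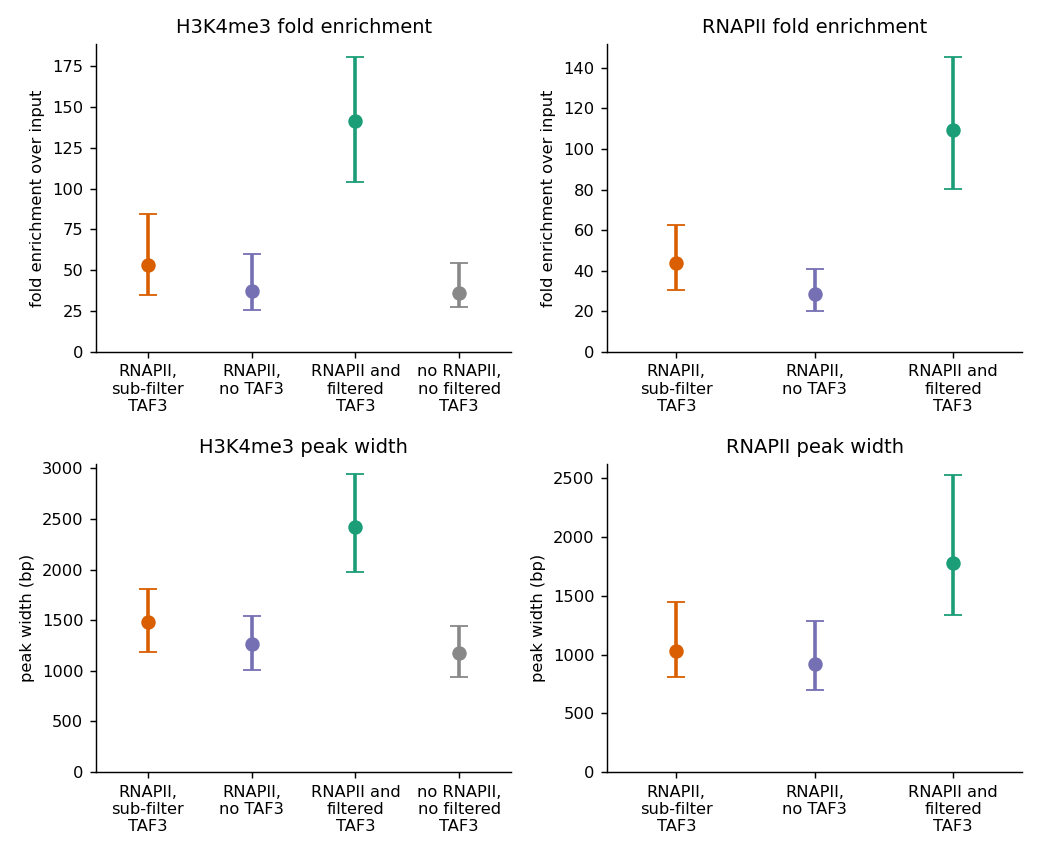
Points are medians and bars run from the lower to the upper quartile over the peaks of each class, for fold enrichment over input (top) and width in bp (bottom) of the H3K4me3 peak (left) and of its best RNAPII peak (right). Regions with a sub-filter TAF3 peak (1730) lie above those with none (327) in each median, and both lie far below the 11523 peaks with filtered TAF3 and RNAPII.

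RNAPII was lower in regions with a sub-filter TAF3 peak than at peaks with filtered TAF3 in each H3K4me3 quintile, and lower still with no TAF3 peak in the 2 quintiles that hold most of those. In the lowest quintile the median RNAPII enrichment was 40.0-fold with a sub-filter TAF3 peak (1035 regions), 27.3-fold with none (254) and 68.5-fold with filtered TAF3 (990). In the 2nd quintile it was 46.8-fold (479), 31.1-fold (62) and 83.8-fold (2228) for the same 3 classes. The 3 classes kept this order in both quintiles, and the intervals of their medians did not overlap. In the highest quintile, 21 regions with a sub-filter TAF3 peak had a median of 80.7-fold (60.7 to 96.2), against 149.6-fold (147.2 to 151.9) at 2828 peaks with filtered TAF3. A single region in that quintile had no TAF3 peak, with RNAPII of 41.6-fold.

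The H3K4me3 peaks were also narrower than peaks with filtered TAF3 in the same quintile of H3K4me3 fold enrichment. In the 2nd quintile the median width was 1696 bp with a sub-filter TAF3 peak, 1538 bp with none and 2196 bp with filtered TAF3. In the highest quintile it was 1895 bp with a sub-filter TAF3 peak and 2660 bp with filtered TAF3. The RNAPII peaks of the regions barely widened with the mark, at 1016, 1028, 1134, 1116 and 1050 bp over the 5 quintiles, low to high, where a sub-filter TAF3 peak was present. At peaks with filtered TAF3 they spanned 1694 to 1822 bp over the quintiles. MACS kept 1 tag per position, which bounds the tags a dense peak can show, and 40.2% of H3K4me3 tags were removed as duplicates. How far that bound flattened the strongest peaks was not tested.

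**Figure D3:**
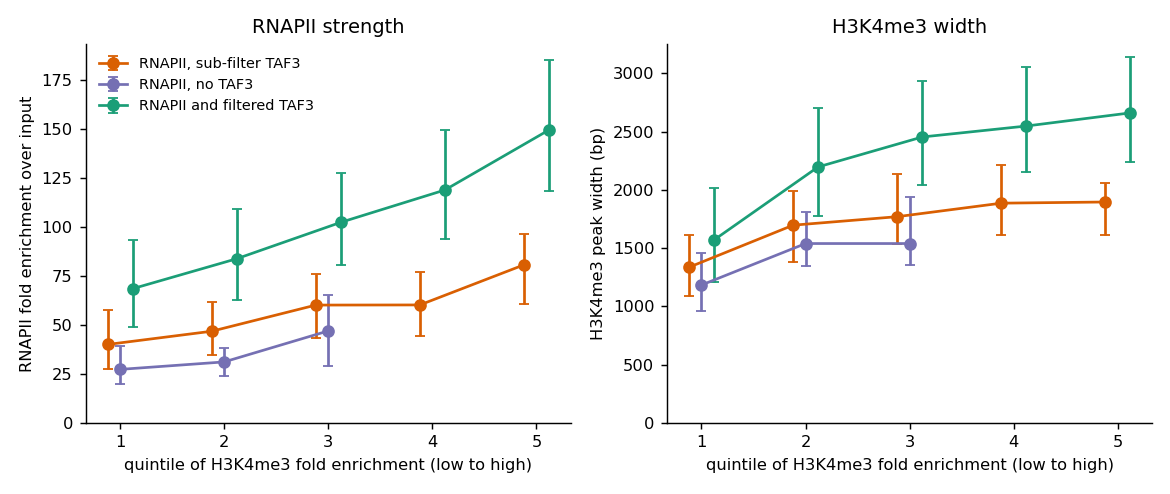
Median RNAPII fold enrichment (left) and median H3K4me3 width in bp (right), with bars to the quartiles, by quintile of H3K4me3 fold enrichment, for regions with a sub-filter TAF3 peak, regions with none and peaks with filtered TAF3 and RNAPII. Classes with under 6 peaks in a quintile are not drawn, and regions with a sub-filter TAF3 peak stay below peaks with filtered TAF3 in all 5 quintiles of both panels.

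The share of peaks without filtered TAF3 declined with both H3K4me3 and RNAPII strength. Among the 13580 H3K4me3 peaks with RNAPII, 2057 (15.1%) had no filtered TAF3 peak. For this comparison the quintiles of both enrichments were taken anew over these 13580 peaks, so that the lowest H3K4me3 quintile reaches 73.8-fold, against 64.9-fold over all 14298. Where both enrichments were in their lowest quintile, 1129 of 1596 peaks (70.7%) had none. Where both were in their highest, 1 of 1386 had none. With H3K4me3 in the lowest quintile, the share without filtered TAF3 was 70.7%, 33.2%, 26.1%, 13.2% and 13.3% over the RNAPII quintiles, low to high. With RNAPII in the lowest quintile it was 70.7%, 43.1%, 25.4%, 19.7% and 11.9% over the H3K4me3 quintiles, low to high. At the top of either measure the share was thus 13.3% of 98 peaks and 11.9% of 42 peaks where the other was lowest. These enrichments share 1 input library with the TAF3 list, and the part of input noise in the pattern was not tested.

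**Figure D4:**
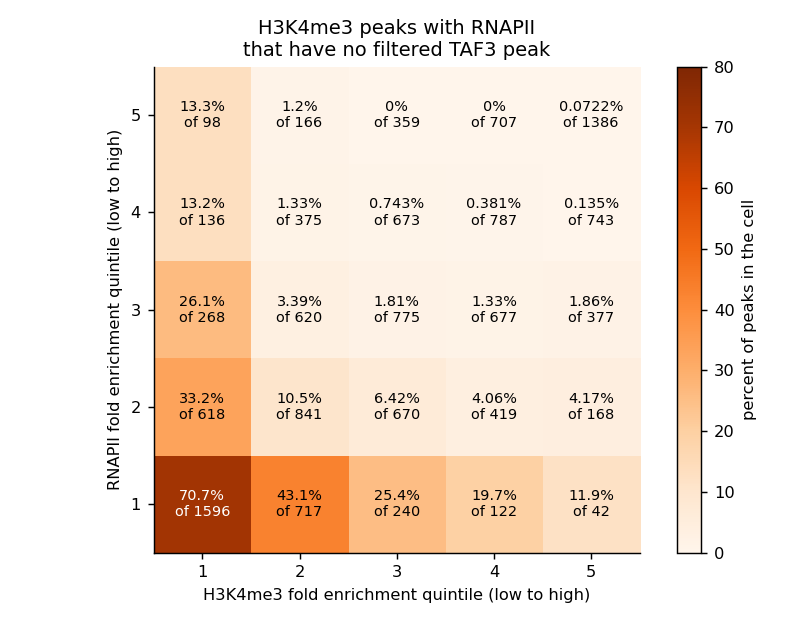
Each cell gives the percent of H3K4me3 peaks with RNAPII that had no filtered TAF3 peak, and the number of peaks in the cell, by quintile of H3K4me3 enrichment (across) and of RNAPII enrichment (up) over the 13580 such peaks. The percent is 70.7% in the lower left cell and 0.0722% in the upper right cell.

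Within single cells of that grid the peaks without filtered TAF3 still differed in width. Where both enrichments were in the 2nd of these quintiles, 84 regions with a sub-filter TAF3 peak had medians of 91.7-fold H3K4me3 and 68.6-fold RNAPII, close to 96.7-fold and 73.9-fold at 753 peaks with filtered TAF3. Their H3K4me3 peaks were 1696 bp wide (1616 to 1808), against 2352 bp (2280 to 2414). Their RNAPII peaks were 1146 bp wide (915 to 1265), against 1743 bp (1686 to 1821). Tags per kb of H3K4me3 peak were 178 in the regions and 286 at the peaks with filtered TAF3. Peaks of like fold enrichment thus held fewer tags over a shorter stretch here. Fold enrichment is a ratio over local background, so like enrichment does not mean like pileup at the summit. In the cell where both enrichments were lowest, the 889 regions with a sub-filter TAF3 peak were 1395 bp wide, the 240 with none 1212 bp and the 467 with filtered TAF3 1674 bp. There the enrichments were matched less well, with RNAPII medians of 33.9-, 25.4- and 45.4-fold.

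Sub-filter TAF3 summits lay close to RNAPII summits. A summit is the base of highest tag pileup in a peak. The median distance from the TAF3 summit was 69 bp to the RNAPII summit (quartiles 23.2 and 218) and 147 bp to the H3K4me3 summit (71 and 291). TAF3 lay within 50 bp of the RNAPII summit in 723 of 1730 regions (41.8%, 39.5 to 44.1%), against 54.7% of the 11523 peaks with filtered TAF3, and the difference was -12.9 points (-15.4 to -10.4). TAF3 lay nearer to the RNAPII than to the H3K4me3 summit in 62.4% of the regions and in 77.2% of the peaks with filtered TAF3. A summit drawn from 37 tags is less exactly placed than one from 193 tags, and the part of that in the difference was not tested. Across TAF3 score bands of the regions, the median distance to RNAPII was 77 bp under a score of 100, 66 bp from 100 to 200 and 70 bp at 200 and over.

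Over all regions, H3K4me3 and RNAPII summits were closer together than at peaks with filtered TAF3, but in the upper 3 H3K4me3 quintiles the intervals overlapped. The median distance was 185 bp (172 to 202) with a sub-filter TAF3 peak and 207 bp (179 to 244) with none, intervals that overlap. It was 290 bp (285 to 295) at peaks with filtered TAF3. Within the lowest and the 2nd quintile of all H3K4me3 peaks it was 163 bp (153 to 175) and 204 bp (180 to 224) with a sub-filter TAF3 peak, against 231 bp (209 to 256) and 268 bp (253 to 280) with filtered TAF3. In the upper 3 quintiles the intervals overlapped, at 262 (210 to 311), 312 (222 to 383) and 274 bp (170 to 365) with a sub-filter peak, against 288 (280 to 299), 298 (289 to 307) and 318 bp (305 to 329). They also overlapped where both enrichments were in the 2nd quintile of peaks with RNAPII, at 234 bp (197 to 268) and 264 bp (247 to 279). The summits fell within 50 bp of each other in 156 of 2057 regions (7.58%), against 175 of 11523 peaks with filtered TAF3 (1.52%), a difference of 6.07 points (4.97 to 7.31). Strength and width were not matched for that share, with median H3K4me3 widths of 1452 and 2423 bp. The H3K4me3 summit lay between the TAF3 and RNAPII summits in 370 of the 1713 regions where all 3 positions differed (21.6%), against 8.23% of peaks with filtered TAF3. The TAF3 summit lay in the middle in 47.6% of these regions and in 61.1% of those peaks.

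RNAPII covered less of the mark with a sub-filter TAF3 peak than at peaks with filtered TAF3 in each H3K4me3 quintile. Over the 5 quintiles of all H3K4me3 peaks, low to high, it covered medians of 73.4%, 61.9%, 57.5%, 60.2% and 52.3% of the peak with a sub-filter TAF3 peak. At peaks with filtered TAF3 the medians were 88.1%, 76.1%, 71.3%, 69.8% and 65.4%, and the intervals did not overlap in any quintile. Strength was not fully matched, with H3K4me3 medians of 38.5- and 82.8-fold in the lowest and 2nd quintile, against 44.8- and 91.6-fold. The gap was smaller where both enrichments were in the 2nd quintile of peaks with RNAPII. Cover there was 67.9% (60.1 to 70.8) with a sub-filter TAF3 peak, against 74.3% (71.6 to 75.9). Without regard to H3K4me3 strength, RNAPII covered 68.0% (67.0 to 69.5) in the regions and 71.1% (70.7 to 71.6) at peaks with filtered TAF3. It reached past neither edge of the H3K4me3 peak in 1087 of 2057 regions (52.8%), past 1 edge in 34.8% and past both in 12.3%. The shares at peaks with filtered TAF3 were 55.4%, 32.7% and 11.95%. The differences were -2.55 points (-4.89 to -0.22), 2.15 points (-0.05 to 4.40) and 0.40 points (-1.08 to 1.999).

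In a minority of regions the overlapping RNAPII peak had its summit elsewhere. The summit lay outside the H3K4me3 peak in 159 of 2057 regions (7.73%), against 4.15% of peaks with filtered TAF3. It did so in 39 of the 327 with no TAF3 peak (11.9%) and in 120 of the 1730 with a sub-filter peak (6.94%), and the sub-filter share was lower by 4.99 points (difference -4.99, interval -9.10 to -1.65). RNAPII peaks of the 159 were a median of 2073 bp wide and 68.8-fold enriched, against 979 bp and 40.1-fold in the other 1898. In 64 of the 159 the same RNAPII peak also covered a filtered TAF3 peak outside the region.

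This bears on the regions that appeared richest in RNAPII. In 63 regions the RNAPII peak exceeded 109.6-fold, the median of peaks with filtered TAF3. In 33 of the 63 its summit was outside the region, and in 31 it also covered a filtered TAF3 peak nearby. Of the 5 such regions with no TAF3 peak, the summit was outside in 5 and a filtered TAF3 peak was shared in 4. The highest, chr19:1444538-1446713 (H3K4me3 of 56.6-fold, TAF3 of 12.8-fold), lay under an RNAPII peak of 252-fold and 10362 bp whose summit was 6719 bp away. Next came chr6:159231138-159233960, under an RNAPII peak of 233-fold and 14843 bp with its summit 5813 bp away. The strongest with no TAF3 peak, chr9:139736645-139737420, was a 776-bp H3K4me3 peak of 43.4-fold under an RNAPII peak 29527 bp wide. In these 3 regions the RNAPII value was read at a summit outside the H3K4me3 peak.

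Some regions were neighbours of an H3K4me3 peak with a filtered or sub-filter TAF3 peak. Another filtered H3K4me3 peak lay within 1 kb of 138 of the 1730 regions with a sub-filter TAF3 peak and of 37 of the 327 with none. Such neighbours were about as common elsewhere, at 8.51% of all 2057 regions and 7.45% of peaks with filtered TAF3. The difference was 1.05 points (-0.18 to 2.42), and the share was 8.38% at peaks with neither filtered partner. Of the 138, 66 had a neighbour with filtered TAF3, 50 one with only sub-filter TAF3 and 22 one with no TAF3. Of the 37, 19 had a neighbour with filtered TAF3, 12 a neighbour with only sub-filter TAF3 and 6 a neighbour with no TAF3. By comparison, only 2737 of all 14298 filtered H3K4me3 peaks had no filtered TAF3 peak. Filtered TAF3 was thus less common at these neighbours than at H3K4me3 peaks in general. A pair on chromosome 22 is an example of such neighbours. The peak at chr22:21055872-21057562 had TAF3 of 34.9-fold with 35 tags, the highest of any sub-filter peak and shared with chr9:70489918-70490236, a 319-bp peak with 28 TAF3 tags. On chromosome 22 the TAF3 summit was 8 bp from an RNAPII summit of 123-fold. The peak at chr22:21057567-21059018 begins 5 bases after it ends, touches the same RNAPII peak and counts as having no TAF3.

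Leaving out regions of both kinds changed the share and the enrichments little. Of the regions, 1794 had the RNAPII summit inside and no H3K4me3 neighbour within 1 kb, and 84.9% of these had a sub-filter TAF3 peak. Median RNAPII was 42.8-fold with a sub-filter TAF3 peak (1523 regions) and 26.8-fold with none (271), against 109.2-fold at peaks with filtered TAF3 kept by the same criteria (10517).

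The median distance to another TAF3 site had overlapping intervals in the regions and at peaks with filtered TAF3, but more of the regions had one close by. The nearest filtered TAF3 peak was a median of 38400 bp away for the regions (34802 to 41608), against 39864 bp (38840 to 41207) from the 11523 peaks with filtered TAF3 and RNAPII to another one. From the 680 H3K4me3 peaks with neither filtered partner it was 81262 bp (73175 to 93517). Another filtered TAF3 peak lay within 1 kb of 3.45% of the regions, against 1.61% of peaks with both, a difference of 1.84 points (1.09 to 2.74). Within 10 kb one lay near 20.7% of the regions, against 18.5%, a difference of 2.17 points (0.33 to 4.11). Among the regions, within 10 kb there was another filtered TAF3 peak for 19.8% of regions with a sub-filter TAF3 peak and 25.4% of those with none, a difference of -5.56 points (-10.9 to -0.73).

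Few regions were as strongly marked as the median peak with filtered TAF3. There were 86 regions with H3K4me3 above 141.2-fold, the median of peaks with filtered TAF3, 81 with a sub-filter TAF3 peak and 5 with none. The 81 were 4.68% (3.78 to 5.78%) of the 1730 and the 5 were 1.53% (0.65 to 3.53%) of the 327. In 8 regions both H3K4me3 and RNAPII exceeded the medians of peaks with filtered TAF3. All 8 had a sub-filter TAF3 peak, where the share over all 2057 regions was 84.1%. They were 0.46% of the 1730 (0.23 to 0.91%), against 0 of the 327 (0 to 1.16%), intervals that overlap. At chr9:100173473-100175636 the mark was 230-fold with 730 tags, RNAPII was 58.8-fold with 130 tags and TAF3 was 18.1-fold with 50 tags, with the TAF3 and RNAPII summits on the same base. At chr1:12289685-12291704 the mark was 225-fold, RNAPII 80.7-fold and TAF3 13.8-fold, with TAF3 and RNAPII summits 14 bp apart. At chr19:708169-710164 the mark was 224-fold and RNAPII only 21.4-fold with 51 tags. TAF3 there had 29 tags, with its summit 332 bp from the RNAPII summit. These 3 regions had TAF3 false discovery rates of 5.9%, 7.56% and 11.05%. The rest of the 5 most strongly marked were chr10:64027184-64029372 and chr14:92301837-92303731. Their TAF3 and RNAPII summits were 176 and 468 bp apart.

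The 5 most strongly marked regions with no TAF3 peak had RNAPII between the median of that set and the median of peaks with filtered TAF3. The highest was chr18:77159830-77161153, where a 1324-bp H3K4me3 peak of 198-fold and 341 tags had RNAPII of 41.6-fold with 56 tags. The next were chr19:10712822-10713846 (147-fold, RNAPII 32.9-fold with 50 tags) and chr19:3028073-3029180 (144-fold, RNAPII 42.4-fold with 59 tags). At chrX:20007835-20009794 and chr7:5322571-5324016 the mark was 142-fold, with RNAPII of 52.1-fold and 65.5-fold and 103 and 60 RNAPII tags. All 5 lay above the RNAPII median of 28.7-fold of the 327 regions and below that of 109.6-fold of peaks with filtered TAF3. In tags, 4 of the 5 lay below the median of 80 of the 327. No TAF3 peak here means none with a MACS p under 1e-05, and the smallest TAF3 peak of the full list held 10 tags. TAF3 was thus not called at this cutoff, and whether it was absent was not tested.

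RNAPII covered only a part of the mark in the widest regions too, where the median cover over all 2057 regions was 68.0%. The H3K4me3 peak at chr16:49888767-49893632 spanned 4866 bp at 107-fold, and the stronger of its 2 RNAPII peaks spanned 852 bp. That at chr10:21805119-21809672 spanned 4554 bp with an RNAPII peak of 1467 bp, and the TAF3 and RNAPII summits in it were 2842 bp apart. Among regions with no TAF3 peak the widest was chr1:875192-878439, at 3248 bp and 22.6-fold. Its RNAPII peak of 5059 bp ran past 1 edge of the mark, and the RNAPII summit lay 2409 bp from the H3K4me3 summit.

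Across regions, TAF3 followed RNAPII more than it followed the mark, as it also did at peaks with filtered TAF3. Over the 1730 regions with a sub-filter TAF3 peak, the fold enrichments of TAF3 and RNAPII had a Spearman's rho of 0.49, those of TAF3 and H3K4me3 0.34 and those of H3K4me3 and RNAPII 0.28. With tags per kb the values were 0.42, 0.15 and 0.11. Over the 327 with no TAF3 peak, H3K4me3 and RNAPII gave 0.16 for fold enrichment and 0.04 for tags per kb. These describe peaks of single libraries that share 1 input, peaks are not independent replicates, and the filter narrows the range of TAF3. By TAF3 score, the median RNAPII enrichment was 33.5-fold for scores under 100 (419 regions), 43.7-fold from 100 to 200 (827) and 53.2-fold at 200 and over (484). Median H3K4me3 enrichment was 43.1-, 56.5- and 64.4-fold in the same bands.

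The regions were spread over all chromosomes but Y, where 1 H3K4me3 peak with RNAPII was found. Against 15.1% of H3K4me3 peaks with RNAPII over the whole genome, the share without filtered TAF3 was 20.5% on chromosome 19 (212 of 1035, 18.1 to 23.05%), 19.8% on X (84 of 425, 16.3 to 23.8%) and 19.7% on 22 (72 of 365, 16.0 to 24.1%). It was lowest on chromosomes 8 (11.5%, 54 of 468) and 16 (11.6%, 72 of 623). Chromosome 19 exceeded the other chromosomes by 5.78 points (3.35 to 8.41). With each H3K4me3 by RNAPII cell given its genome-wide share, 183 regions would fall on chromosome 19, 65.3 on X, 63.1 on 22 and 72.3 on 8. Regions on X had the highest median H3K4me3 (73.0-fold) and RNAPII (54.1-fold) of any chromosome, against 41.8- to 62.5-fold and 30.1- to 49.3-fold on the autosomes. These intervals are not adjusted for the 23 chromosomes compared, and neighbouring peaks are not independent.

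**Figure D5:**
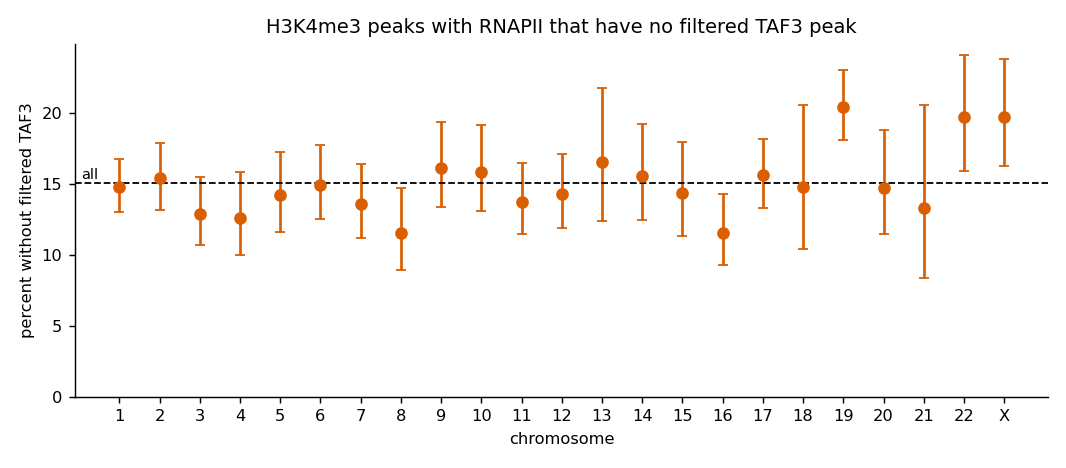
Percent of H3K4me3 peaks with RNAPII that had no filtered TAF3 peak on each chromosome, with Wilson 95% intervals over peaks and the genome-wide 15.1% as a dashed line. Chromosomes 19, 22 and X lie above the line with intervals that exclude it, and 8 and 16 lie below it.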

How the data were processed

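The authors processed reads with CASAVA 1.8.2 and called peaks with MACS 1.4.2 on hg19, per the submitters' processing notes. How reads were aligned is not stated in what was used here. Each antibody was called against the same input library, per the file headers, with a p cutoff of 1e-05 and at most 1 tag per position. Tags in the deposited lists are a raw count for each peak, unscaled. Fold enrichment in them is the deposited ratio over local background. The score there, as deposited, is -10 times log10 of p. False discovery rates were deposited as percent values. All per-peak values are the authors' own. In the filtered lists 0 peaks were outside a fold enrichment of 5 and a rate of 5%.

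Peaks were matched by 1 shared base, with the overlapping RNAPII peak of highest fold enrichment and the full-list TAF3 peak of highest score taken as partners. Shares carry Wilson 95% intervals, differences Newcombe intervals, and medians binomial order-statistic intervals. Bins are quintiles. Python 3.11.15 with scipy 1.17.1, pandas 2.3.3 and numpy 2.4.6 was used, and figures were drawn with matplotlib 3.10.9. The overlap and interval code was tested on simulated data and against bedtools 2.31.1 (15 of 15 checks passed). Regions named are, in each set, up to the 5 of highest H3K4me3, the 5 of highest RNAPII and the 3 widest, those of highest TAF3 enrichment, and those beside a threshold. Regions and comparisons were chosen with earlier results of these data known. The annotation at hand is on another build than hg19, so genes, gene lists and sequences are not analysed here.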

Additional observations from a re-analysis of the deposited data

How the results depend on the processing

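Under the alternatives 83 values were recomputed, and 48 of them were inside the main value's interval (for the number of regions, within 1.5 times). Leaving out chromosomes X and Y, counting TAF3 within 1 kb, pairing by nearest RNAPII summit, and adding the RNAPII peaks of score 3100 or more that the filter left out moved none. The last, and the restriction to isolated regions, were chosen after seeing the data.

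With a partner covering 50% of the H3K4me3 peak, 45.0% of regions had a full-list TAF3 peak. RNAPII was then 49.2-fold with it and 60.1-fold without, and H3K4me3 was 53.9-fold and 1470 bp wide with it and 82.3-fold and 1812 bp without, each in the opposite order to the reported values. With the H3K4me3 summit inside the partner, the share was 76.5%. Where no TAF3 peak covered the H3K4me3 summit, H3K4me3 was then 42.5-fold and 1371 bp and RNAPII 33.2-fold. The H3K4me3 to RNAPII summit distance was 162 bp with such a TAF3 peak and 278 bp without. In both settings a TAF3 peak, filtered or not, that missed the rule counted as none.

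With the upper 50% of H3K4me3 peaks, 140 regions were left, 95.7% with TAF3. Values with and without TAF3 were 149.0- and 143.2-fold H3K4me3, 63.4- and 42.0-fold RNAPII, 1872 and 1385 bp of width, and 288 and 283 bp between summits. Those without TAF3 rest on 6 regions, with intervals of 17.4- to 65.5-fold for RNAPII and 1025 to 1960 bp for width. The intervals with and without TAF3 overlap for each of these measures. With the upper 50% of RNAPII peaks, 903 were left, 92.4% with TAF3. Values were 63.7- and 43.4-fold H3K4me3 and 63.3- and 60.5-fold RNAPII, and without TAF3 the width was 1166 bp and the summit distance 398 bp. The RNAPII intervals overlap, at 61.7 to 65.4 (834 regions) and 56.1 to 66.9 (69).

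With only full-list TAF3 peaks under a 5% false discovery rate, 0% of regions had TAF3 by construction, and all 2057 had medians of 50.5-fold H3K4me3, 41.4-fold RNAPII and 1452 bp. With isolated regions, width was 1515 bp and summit distance 169 bp with TAF3. No paired analysis was possible because each antibody has 1 library, and for the same reason none could be left out.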
